A study of Homo sapiens with 17 samples.

Results

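Forkhead genes encode transcription factors that share a winged-helix DNA-binding domain, and the genes described here are all of those other than the FOXA genes. They were taken from the RefSeq gene table of GRCh38.p14 as the protein-coding genes on chromosomes 1 to 22 whose symbol is FOX, a letter from B to S and a number, with or without an L and a further number. The rule gave 44 genes of 19122 protein-coding genes on those chromosomes. They were put into 3 groups by symbol, each named for the known use of most of its genes. The developmental group has 27 genes, of the letters B to I, L, Q and S. Most are tissue-restricted developmental regulators, such as FOXC1, FOXC2 and FOXF1, and FOXD4 and its copies are included by letter alone. The broad group has 12 genes, most of them used in many cell types: FOXJ2, FOXJ3, FOXK1, FOXK2, FOXM1, FOXN2, FOXN3, FOXO1, FOXO3, FOXO6, FOXP1 and FOXP4. The other 5, FOXJ1, FOXN1, FOXN4, FOXP2 and FOXR1, act in few cell types.

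Forkhead proteins bind variants of a shared core motif, and members are told apart mainly by where and when they are made. FOXA1, the factor immunoprecipitated here, is a pioneer factor of lung and liver epithelium that can bind its sites in closed chromatin. H3K27me3 is laid down by Polycomb repressive complex 2 and is a known mark of silent developmental regulators, whereas H3K9me3 marks constitutive heterochromatin. AP-1 is a dimer of Fos and Jun proteins, and A-Fos is a dominant-negative Fos that ties up Jun partners so that they cannot bind DNA.

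The data are ChIP-seq peak lists from A549, a human lung carcinoma cell line. A line carrying A-Fos, integrated with the piggyBac transposon, was profiled for FOXA1 and for the AP-1 subunit FOSL2, in 2 libraries with doxycycline (1 µg/mL for 48 h) and 2 libraries without it. WT cells, given no treatment, were profiled for H3K27me3, H3K9me3 and FOXA1, in 2 libraries each. Neither mark was profiled in the A-Fos line, and doxycycline without A-Fos was not analysed here, so the drug and A-Fos cannot be told apart. The labels do not say whether the A-Fos line is 1 clone or how even its induction was. The labels call the libraries biological replicates, and nothing in them says more of how they were separated, so spreads between libraries may be partly technical. RNA was not measured, and nothing below is an expression level.

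There was 1 list per library and 14 lists in all. A list gives peaks, not reads, so depth is unknown, and the length of a list can carry depth and antibody yield. On chromosomes 1 to 22, the FOXA1 lists of the A-Fos line held 10945 and 14856 peaks with doxycycline, against 7482 and 12958 without. The FOSL2 lists held 1853 and 5256 peaks with doxycycline, against 44513 and 14621 without, so the 2 lists without doxycycline also differed from each other in length. The WT lists held 185415 and 220428 H3K27me3 peaks, 294696 and 193998 H3K9me3 peaks and 48571 and 78743 FOXA1 peaks. Of 6 epithelial marker genes, none had H3K27me3 in its body in both lists, against 30.3% of all genes. A WT FOXA1 region lay within 50 kb of 5 of them, against 72.9%. Of 4 muscle markers, 2, MYOD1 and MYH7, were covered by H3K27me3 over at least 50% of the body in both lists, against 5.14%. The others were ACTA1, with 9.61% and 8.25%, and MYOG, with none. No blood, neuron, endothelial or fibroblast marker looked at reached 50% in both lists. PTPRC (blood) and SNAP25 (neuron) had no H3K27me3 in the body.

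RefSeq promoter windows of GRCh38.p14, reaching 250 bases before and 50 bases after a transcription start, were matched by symbol for 34 of the 44 genes. Of these, 6 windows are shown because a mark or FOXA1 lay on them in ways the results below turn on. Each is written 5′ to 3′ along its gene's own strand. In the FOXP1 window, at an internal start of the gene (chr3:71245028-71245327, minus strand), the capitals mark the forkhead core motif TGTTTAC. In the windows of FOXJ3 (chr1:42335831-42336130, minus strand), FOXQ1 (chr6:1311848-1312147, plus strand), FOXD3 (chr1:63322317-63322616, plus strand) and FOXP2 at an internal start (chr7:114414565-114414864, plus strand), the capitals mark the bases inside a FOXA1 peak in both WT lists. In the FOXB1 window (chr15:60004061-60004360, plus strand), which lies wholly inside H3K27me3 peaks in both lists, the capitals mark CpG dinucleotides.
FOXP1: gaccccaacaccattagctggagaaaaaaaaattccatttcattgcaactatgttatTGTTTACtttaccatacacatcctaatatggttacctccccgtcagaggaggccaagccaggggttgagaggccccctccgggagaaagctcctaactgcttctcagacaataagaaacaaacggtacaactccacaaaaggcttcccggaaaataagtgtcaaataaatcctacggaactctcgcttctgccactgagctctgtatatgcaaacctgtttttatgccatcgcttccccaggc
FOXJ3: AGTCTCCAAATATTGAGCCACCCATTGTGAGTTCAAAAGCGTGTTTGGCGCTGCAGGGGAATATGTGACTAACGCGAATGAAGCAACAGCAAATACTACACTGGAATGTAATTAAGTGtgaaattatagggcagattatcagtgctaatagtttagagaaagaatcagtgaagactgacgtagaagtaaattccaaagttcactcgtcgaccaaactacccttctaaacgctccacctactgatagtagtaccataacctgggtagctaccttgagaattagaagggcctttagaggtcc
FOXQ1: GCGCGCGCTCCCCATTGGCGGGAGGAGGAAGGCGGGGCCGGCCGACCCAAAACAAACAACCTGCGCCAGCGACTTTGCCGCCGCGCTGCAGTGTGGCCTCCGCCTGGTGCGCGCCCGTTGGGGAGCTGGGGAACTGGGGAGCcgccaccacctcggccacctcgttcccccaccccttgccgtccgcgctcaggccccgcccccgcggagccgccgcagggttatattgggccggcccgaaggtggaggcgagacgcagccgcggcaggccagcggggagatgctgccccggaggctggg
FOXD3: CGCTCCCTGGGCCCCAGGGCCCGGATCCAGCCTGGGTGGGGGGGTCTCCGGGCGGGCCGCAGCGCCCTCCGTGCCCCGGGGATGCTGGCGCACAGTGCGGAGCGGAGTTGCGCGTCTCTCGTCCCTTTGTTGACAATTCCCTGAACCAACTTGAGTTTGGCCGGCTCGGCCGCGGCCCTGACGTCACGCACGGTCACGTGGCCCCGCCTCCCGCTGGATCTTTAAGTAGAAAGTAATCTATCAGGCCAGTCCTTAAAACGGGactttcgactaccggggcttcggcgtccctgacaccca
FOXP2: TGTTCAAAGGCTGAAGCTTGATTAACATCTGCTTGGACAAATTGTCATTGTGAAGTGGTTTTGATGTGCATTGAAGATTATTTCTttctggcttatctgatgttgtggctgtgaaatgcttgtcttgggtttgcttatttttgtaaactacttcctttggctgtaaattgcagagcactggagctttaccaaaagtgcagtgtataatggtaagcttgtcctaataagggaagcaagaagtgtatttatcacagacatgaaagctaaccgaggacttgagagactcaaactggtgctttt
FOXB1: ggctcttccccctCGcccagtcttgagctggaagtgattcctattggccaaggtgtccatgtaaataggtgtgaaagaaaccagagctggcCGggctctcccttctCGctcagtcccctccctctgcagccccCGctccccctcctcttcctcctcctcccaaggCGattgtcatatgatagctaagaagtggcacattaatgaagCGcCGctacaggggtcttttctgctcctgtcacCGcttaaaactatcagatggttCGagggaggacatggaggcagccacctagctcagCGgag

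H3K27me3 covered more than 50% of the body of 4 forkhead genes, most of them developmental, and was absent from the bodies of most others. Cover is the share of a gene's bases that lie under peaks of a list, and a gene was called covered when it reached at least 50% in both WT lists. The 4 genes called were FOXI3, FOXB1, FOXF1 and FOXN1, which is 9.09% of the 44 genes against 5.14% of all protein-coding genes. Forkhead genes are short, with a median length of 3991 bp against 24490.5 bp over all genes. Among genes under 10 kb, 3 of 29 forkhead genes were called against 9.90% of all genes of that length, and among genes of 10 kb or more, 1 of 15 was called against 3.30%. These shares, 10.3% and 6.67%, rest on so few genes that they are read as near the background.

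FOXI3, a regulator of ectodermal placodes and appendages, was covered over 90.0% of its body in list 1 and 88.9% in list 2. FOXB1, a gene of the developing diencephalon and spinal cord, was covered over 78.1% and 100%. FOXF1, which acts in the mesenchyme of the lung and gut, was covered over 79.5% and 90.2%. These 3 genes stood in the upper part of the range in both lists. FOXN1, the regulator of thymic epithelium, was covered over 59.0% and 54.5% and was the only gene of 10 kb or more to be called.

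FOXI2, FOXB2 and FOXL3 were each over the threshold in list 2 and under it in list 1. FOXI2 was covered over 47.8% in list 1 and 77.1% in list 2. FOXB2, a paralog of FOXB1, was covered over 31.6% and 55.5%. FOXL3 was covered over 12.8% and 57.0%, the widest gap between the lists among the 3. The count therefore rests on list 1: in list 2 alone, 7 genes were called, against 7.05% of all genes. FOXN4, a regulator of retinal and spinal interneurons, was covered over 33.0% and 28.8%.

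Any H3K27me3 in the body in both lists was found at 14 of the 44 forkhead genes, against 30.3% of all genes. Beside those named above, they included FOXC2, FOXO6, FOXN3, FOXR1 and FOXP2, with cover between 2.80% and 18.6% in either list. FOXE3, a lens gene, had 25.1% in list 1 and none in list 2. FOXJ1, the regulator of motile cilia, had 7.51% in list 1 and none in list 2, so neither gene had the mark in both lists. Among the 12 broad genes, 2 had any H3K27me3 in the body in both lists, FOXO6 and FOXN3, and none was called covered. The broad genes FOXO1 and FOXO3, effectors of insulin signalling, and FOXK1, FOXK2, FOXP1, FOXP4, FOXJ2, FOXJ3 and FOXN2 had no H3K27me3 peak in the body in either list. FOXM1, a regulator of mitotic genes, was the 1 member with neither H3K27me3 nor H3K9me3 anywhere in its body or within 50 kb on each side in any of the 4 lists.

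**Figure D1:**
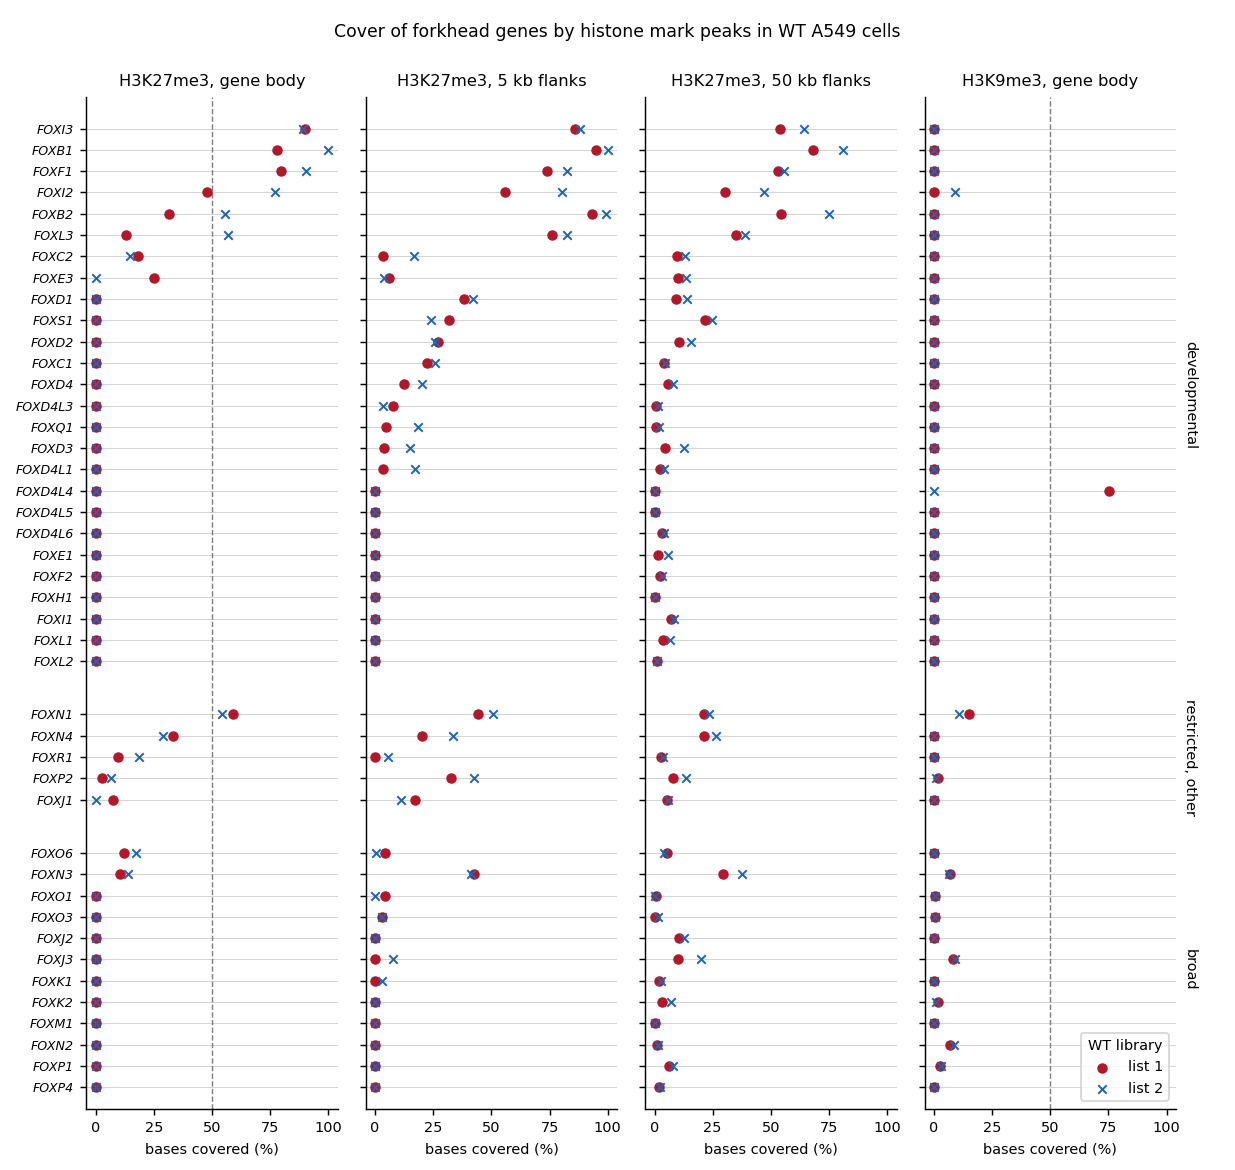
Each row is a forkhead gene and the x axis gives the percent of bases under peaks of a mark, for the body, the 5 kb flanks and the 50 kb flanks (H3K27me3) and for the body (H3K9me3). Circles are WT list 1, crosses are WT list 2 and the dashed line is 50%; FOXI3, FOXB1, FOXF1 and FOXN1 lie past it in both H3K27me3 lists, and no gene drawn does in both H3K9me3 lists.

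H3K27me3 was also counted at the ends and flanks of forkhead genes, at lower thresholds than the 50% used for the body. It came within 1 kb of a gene end, inside or outside the gene, in both lists at 16 of 44 genes, against 23.9% of all genes. Any base of the body was covered in both lists at 14 genes, as given above. It covered at least 20% of the 5 kb flanks in both lists at 15 of 44 genes, against 15.9%. The 50 kb flanks reached 20% in both lists at 10 genes, against 14.0%. Median cover of the 50 kb flanks over the 44 genes was 5.51% in list 1 and 7.63% in list 2, against 3.06% and 4.71% over all genes. No test of these shares against all genes was made, since the genes were chosen with results of these data known. The shares at ends and flanks were also not split by gene length, and forkhead genes are shorter by median (3991 bp against 24490.5 bp).

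At 4 forkhead genes H3K27me3 covered at least 20% of the 5 kb flanks in both lists and the body carried none in either list. The same held for 2.06% of all genes, again not split by gene length. FOXD1, a gene of kidney stroma and retina, had 38.2% and 42.1% of its 5 kb flanks covered. FOXS1 had 31.7% and 24.1%, FOXD2 had 26.97% and 25.69%, and FOXC1 had 22.4% and 25.9%. FOXC1 is needed in the eye and the cerebral vessels, and its H3K27me3 lay upstream of its start, in a pair of peaks at chr6:1606095-1607111 and chr6:1607671-1608890 in list 1. At FOXD1, on the minus strand, the peaks also lay on the upstream side, at chr5:73449541-73451366 and chr5:73451783-73454285 in list 1, and a WT FOXA1 region overlapped its other end.

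At the most covered genes the mark ran far past the gene. The 50 kb flanks of FOXB1 were covered over 68.0% in list 1 and 81.0% in list 2. Those of FOXB2 were covered over 54.5% and 75.1%, those of FOXI3 over 53.9% and 64.1%, and those of FOXF1 over 53.0% and 55.8%. The single peak over the start of FOXB1 was 15410 bp long in list 1 and 23253 bp in list 2. Next to FOXF1 one peak of list 2 was 23564 bp long. FOXC2 and FOXL1, which are neighbours of FOXF1 on chromosome 16, had 50 kb flanks covered over 9.51% and 12.9% (FOXC2) and 3.80% and 6.49% (FOXL1), so the wide domain of FOXF1 was not shared by the other 2 genes of that cluster.

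**Figure D2:**
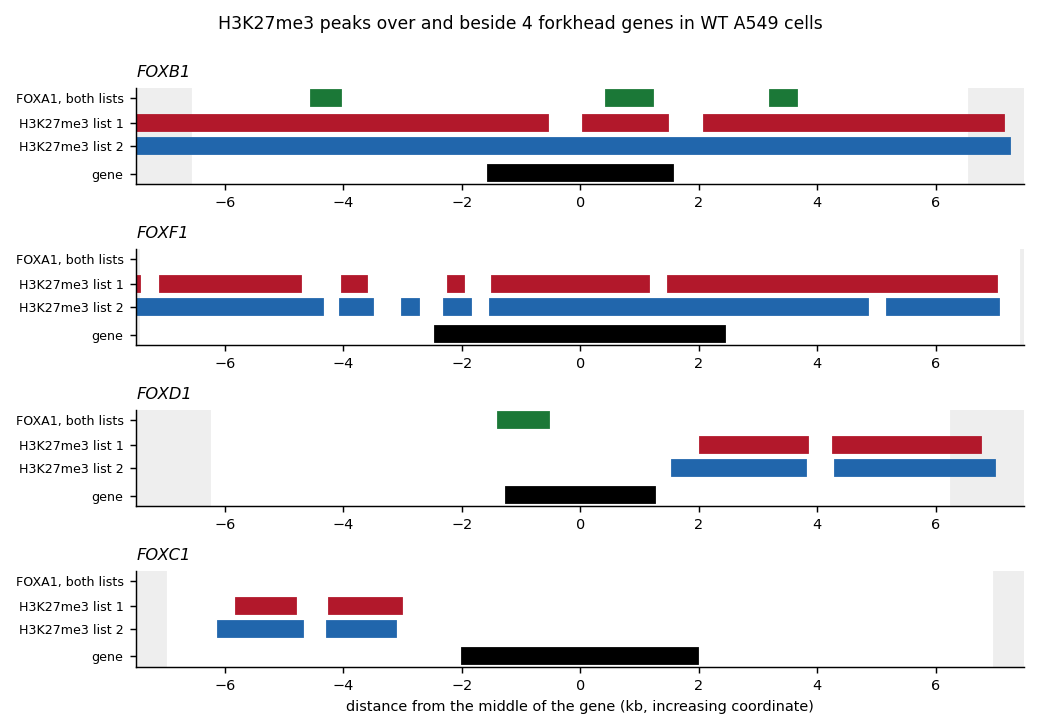
Peaks in WT cells at FOXB1, FOXF1, FOXD1 and FOXC1 are drawn to scale against the distance from the middle of each gene in kb, with rows for FOXA1 regions called in both lists, H3K27me3 list 1, H3K27me3 list 2 and the gene. Grey areas lie over 5 kb from the gene; H3K27me3 lies across FOXB1 and FOXF1, and on 1 side only of FOXD1 and FOXC1, whose bodies have none.

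The promoter windows that H3K27me3 filled were not the richest in CpG. In 4 windows, those of FOXB1, FOXB2, FOXN1 and the internal start of FOXP2, all 300 bases lay under peaks in both lists. They held 10 (FOXB1), 22 (FOXB2), 12 (FOXN1) and 1 CpG (FOXP2), as the sparse capitals of the FOXB1 window printed above show. The 38 windows of 28 genes with no H3K27me3 base in either list held 2 to 55 CpG with a median of 28.5. The ranges overlap and 4 windows are few. A window that the mark did not fill can still lie in a marked gene. FOXI3, with 90.0% and 88.9% of its body covered, had no filled window and up to 39 CpG. Its H3K27me3 peaks in list 1 stopped at chr2:88452103 and began again at chr2:88453000, on either side of its first base. FOXF1 had no matched window.

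With both lists required, H3K9me3 was found within the bodies of 9 forkhead genes, all of 10 kb or more, at low cover. Among the shorter genes it lay in the body in a single list at FOXI2 (9.25% in list 2) and at FOXD4L4, described below. No gene was covered over at least 50% of its body in both lists, against 2.27% of all genes, and none had the mark within 1 kb of an end in both lists, against 9.83%. Any H3K9me3 in the body in both lists was found at 9 of 44 genes, against 39.5%. Split by length, it was found at 9 of the 15 forkhead genes of 10 kb or more, against 51.3% of all genes of that length, and at none of the 29 shorter ones, against 8.92%. Both counts are read as near the background. Median cover of the 50 kb flanks was 4.39% in list 1 and 3.19% in list 2 over the 44 genes, against 3.52% and 2.81% over all genes. Among the 9 genes, the highest body cover was 15.0% in list 1 and 10.9% in list 2 at FOXN1, the thymic gene also covered by H3K27me3, followed by 8.11% and 8.86% at FOXJ3, 7.11% and 8.68% at FOXN2 and 6.84% and 6.49% at FOXN3. FOXL3 was the 1 gene whose 50 kb flanks reached 20% in both lists, at 30.3% and 28.5%, against 4.10% of all genes.

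FOXD4 and its copies FOXD4L1, FOXD4L3, FOXD4L4, FOXD4L5 and FOXD4L6 are nearly identical, so reads may be split between them or set aside, and their values are uncertain. FOXD4L4 was covered by H3K9me3 over 75.1% of its body in list 1 and 0% in list 2. Without list 2 the count of forkhead genes covered by H3K9me3 was 1, which is this gene, and the count with the mark at an end was 5. FOXD4L6 had 7 FOXA1 peaks within 50 kb in WT list 1 and none in WT list 2. None of the 6 copies had a FOXA1 or FOSL2 peak within 50 kb in any of the 8 A-Fos lists. Leaving all 6 out kept the count of H3K27me3-covered genes at 4, then of 38.

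WT FOXA1 regions were found near most forkhead genes, at about the rate of other genes. A region is a run of overlapping peaks, and it was counted when both WT lists had a peak in it. Such a region lay within 50 kb of 35 of the 44 genes, against 72.9% of all genes. Among genes under 10 kb it did so for 21 of 29, against 60.0%, and among longer genes for 14 of 15, against 77.8%. At 10 kb the count was 24 genes, against 48.9%, and at 1 kb, gene bodies included, 19 genes, against 37.6%. The median number of regions per 100 kb of gene and flanks was 1.11 over the 44 genes and 0.973 over all genes. The 9 genes with none were FOXO6, FOXE3, FOXL3, FOXH1 and the FOXD4-like genes L1, L3, L4, L5 and L6.

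The regions were unevenly spread among the genes. Of 142 distinct regions, FOXP1 had 44 and no other gene more than 8. FOXP1, which acts in lung epithelium, B cells and neurons, is also the longest member, and at 6.03 regions per 100 kb its density lay close to that of FOXN1 (6.04) and below that of FOXQ1 (6.82). FOXQ1, an epithelial forkhead gene of 2661 bp, had 7 regions. FOXN1, FOXN3 and FOXP2 had 8 each. Of the 142 regions, 83 lay at least partly in a forkhead gene's body, and without those of FOXP1 the count was 40 of 98.

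The strongest region near a forkhead gene, by its mean rank within the 2 lists, lay 3.97 kb upstream of FOXJ3, at chr1:42339850-42341082, with an enrichment of 64.4-fold in list 1 and 157-fold in list 2. Enrichments are the authors' own and serve here to rank peaks within a list. FOXC2 and FOXL1 shared the next, at chr16:86590142-86591083, with 56.4-fold and 119-fold, which lay 20.4 kb from FOXC2 and 6.66 kb from FOXL1. The region at chr3:71111500-71112316 inside FOXP1 had 69.7-fold and 80.8-fold. Strong regions also lay inside FOXK1 at chr7:4744519-4746428 (26.17-fold and 82.96-fold) and inside FOXN2 at chr2:48343820-48344837 (25.2-fold and 48.8-fold). Another lay 10.6 kb past FOXQ1, a short gene of the developmental group, at chr6:1325368-1326187 (23.8-fold and 76.1-fold), and ranked above that of FOXN2. FOXK1 and FOXN2 are long genes of the broad group. In that group 10 of 12 genes had a region in the body or within 1 kb, against 37.6% of all genes. Of the 27 developmental genes, which are mostly short, 5 did. These shares were not split by gene length.

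A WT FOXA1 region lay on a start site of several members. At FOXD3, a gene of the neural crest, the region chr1:63322087-63322724 took in 262 of the 300 bases of the printed window in list 1 and all of them in list 2. At FOXQ1 the same counts were 142 and 300, and at the printed FOXJ3 window 118 and 300. FOXM1 had 1 region within 50 kb, at chr12:2876919-2878180 across an end of the gene. FOXJ1 had 4 regions within 50 kb, of which 1 lay inside the gene at chr17:76138340-76139126, with 4.01-fold in list 1 and 12.8-fold in list 2.

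FOXA1 regions near forkhead genes lay inside H3K27me3 in 13 of 142 cases (9.15%), against 3.35% of the 35009 WT regions on chromosomes 1 to 22. Inside means that peaks of both H3K27me3 lists overlapped the region, and the difference in share was not tested. FOXB1 had 4 of them, FOXP2 had 3, FOXN4 had 2, and FOXF1, FOXI2, FOXN1 and FOXN3 had 1 each. The region inside FOXB1, at chr15:60006311-60007113, had 23.8-fold and 40.6-fold FOXA1 enrichment within a gene covered by H3K27me3. At the first base of FOXP2, a gene of speech-related brain circuits that is also used in lung epithelium, the region chr7:114085446-114086434 had 18.0-fold and 41.5-fold. H3K27me3 peaks overlapped part of this region, and the first base itself lay between peaks of the mark in both lists. At the internal FOXP2 start printed above, H3K27me3 filled the window in both lists and FOXA1 covered 85 and 300 of its bases. Of the 14 genes with H3K27me3 in the body, 12 had a WT FOXA1 region within 50 kb, and of the other 30 genes, 23 did. H3K9me3 overlapped 1 of the 142 regions in both lists, against 2.06% of all WT regions.

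**Figure D3:**
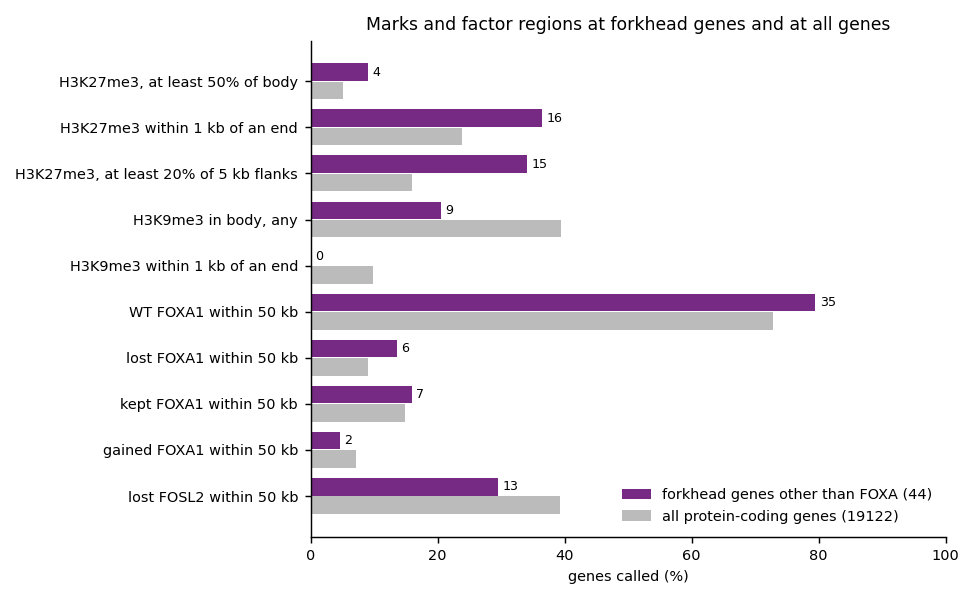
Bars give the percent of genes called, with forkhead genes other than FOXA above and all protein-coding genes below in each pair, and the number beside a purple bar is the count of 44. The H3K27me3 flank bar is longer for forkhead genes (15 genes, 34.1% against 15.9%) and the H3K9me3 body bar is shorter (9 genes, 20.5% against 39.5%). All genes are longer by median, and the shares drawn are not split by gene length. No test of the shares was made.

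With A-Fos induced, FOSL2 peaks near forkhead genes were few in both libraries. Within 50 kb of any of the 44 genes there were 5 and 12 FOSL2 peaks with doxycycline, against 119 and 31 without. The groups did not overlap. The means were 8.5 ± 4.95 with doxycycline and 75 ± 62.2 without (SD, n = 2 each), a difference of -66.5 with p = 0.333 in a two-sided exact permutation test over libraries, which is the smallest p that 2 against 2 can give. As a share of each list, the peaks near forkhead genes were 0.270% and 0.228% with doxycycline, against 0.267% and 0.212% without, and the exact permutation p was 0.667. The lower number near forkhead genes thus went with shorter lists, which had 3554.5 ± 2406 peaks with doxycycline against 29567 ± 21137 without. With every list shortened to the length of the shortest, the difference was 2 peaks in the other direction.

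A FOSL2 region was called lost when it had peaks in both doxycycline-free libraries and in neither of the induced ones. Lost FOSL2 regions lay within 50 kb of 13 of the 44 genes, against 39.3% of all genes. None was kept in all 4 libraries, against 0.0418% of all genes with a kept region, and none was gained, against 0.120%. FOXP1 had 9 of the 25 distinct regions, FOXQ1 had 4 and FOXE1, a thyroid gene, had 2, and FOXJ2, FOXJ3, FOXM1, FOXN3, FOXO1, FOXB2, FOXI1, FOXL2, FOXR1 and FOXS1 had 1 each. The broad genes made up 6 of the 13. The count rests on the second library without doxycycline, since without it 30 genes had a lost region. None of the 25 lay in H3K27me3 in both lists, against 1.88% of the 9815 lost FOSL2 regions on chromosomes 1 to 22, and 13 overlapped a WT FOXA1 region, against 47.6%. FOXP1 was the 1 forkhead gene with a FOSL2 region in its body or within 1 kb of an end in both libraries without doxycycline, against 15.8% of all genes.

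**Figure D4:**
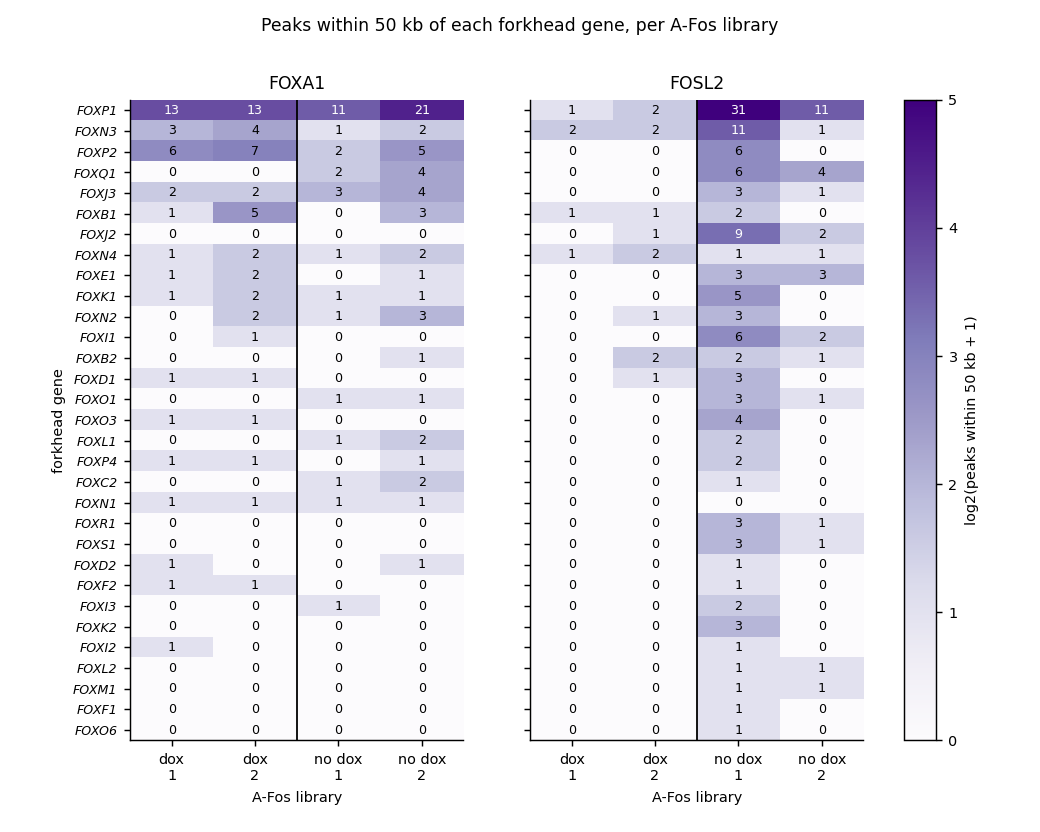
Numbers are peaks within 50 kb of each forkhead gene that had any, in each A-Fos library, with doxycycline (dox) left and without (no dox) right, for FOXA1 and for FOSL2; colour is log2(peaks + 1). FOSL2 counts with doxycycline are 0 to 2 at every gene drawn, against up to 31 without, and FOXA1 counts of FOXP1 are 13 and 13 with doxycycline against 11 and 21 without.

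The number of FOXA1 peaks near forkhead genes differed between the conditions by less than the spread between libraries. There were 35 and 45 within 50 kb of the 44 genes with doxycycline, against 26 and 53 without. The doxycycline values lay between the other 2. The means were 40 ± 7.07 with doxycycline and 39.5 ± 19.1 without (SD, n = 2 each), with a difference of 0.5 and p = 1 in a two-sided exact permutation test. As a share of each list, the peaks were 0.320% and 0.303% with doxycycline, against 0.348% and 0.409% without. Here the groups did not overlap and the exact permutation p was 0.333, again the smallest possible.

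Single FOXA1 regions had peaks under 1 condition alone, as a description with no test. The same terms were used for FOXA1, with gained for peaks in both induced libraries alone and kept for peaks in all 4. Lost regions lay near 6 genes, against 9.05% of all genes, kept regions near 7, against 14.9%, and gained regions near 2, against 7.15%. Lost regions were 8 distinct ones near FOXJ3, FOXP1, FOXQ1, FOXO1 and the neighbours FOXC2 and FOXL1. Kept regions were 12 near FOXJ3, FOXP1, FOXK1, FOXP2, FOXN4, FOXN3 and FOXN1. The 2 gained regions were at FOXP1 and FOXO3. Every one of these 22 regions overlapped a WT FOXA1 region, as did 99.3% of lost, 99.4% of kept and 71.6% of gained regions over chromosomes 1 to 22.

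Of the 8 lost FOXA1 regions, 4 overlapped a FOSL2 region of cells without doxycycline, as did 1 of the 12 kept regions and neither gained one. Over chromosomes 1 to 22, the shares were 40.6% of 1812 lost, 20.9% of 3141 kept and 0.635% of 1259 gained regions. The 4 were 1 inside FOXP1 at chr3:71111731-71112309, 2 near FOXQ1 at chr6:1267252-1267612 and chr6:1325543-1325953, and 1 beyond the end of FOXO1 at chr13:40540417-40540876. The FOXO1 region had an enrichment of 8.55-fold and 16.2-fold in the FOXA1 libraries without doxycycline, and its FOSL2 peaks had 34.3-fold and 9-fold there. FOXQ1 had FOXA1 peaks in neither library with doxycycline (0 and 0), against 2 and 4 without, and its FOSL2 peaks were 0 and 0 with doxycycline, against 6 and 4 without. FOXO1 had 0 and 0 FOXA1 peaks with doxycycline, against 1 and 1 without.

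FOXJ3, known from mouse muscle and germ cells, had regions of 2 kinds within 5 kb of its start. The region at chr1:42339965-42340955, which overlapped FOSL2, was kept, with 11.5-fold and 16.2-fold with doxycycline, against 25.4-fold and 53.0-fold without. The region at chr1:42335958-42336548 was lost, with no peak with doxycycline, against 7.88-fold and 18.8-fold without. Its peaks took in 0 and 0 bases of the FOXJ3 window printed above with doxycycline, against 89 and 173 without. A FOSL2 peak took in 179 bases of that window in the first FOSL2 library without doxycycline and none in the other 3. Another region, deeper in the gene, at chr1:42214440-42215058, was kept, with 32.01-fold and 35.01-fold with doxycycline, against 13.0-fold and 21.6-fold without. Enrichments come from lists called separately, so they are set side by side and not compared.

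The region shared by FOXC2 and FOXL1 was lost at chr16:86590386-86590887, with no peak with doxycycline, against 8.14-fold and 21.8-fold without. It is part of the strong WT region given above, and no FOSL2 region overlapped it in both libraries without doxycycline. FOXC2 acts in lymphatic vessels and FOXL1 in gut mesenchyme, and FOXF1, in the same cluster, had no FOXA1 peak within 50 kb in any of the 4 A-Fos libraries.

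FOXP1 carried all 3 kinds of FOXA1 region, with 3 lost, 5 kept and 1 gained. Its number of FOXA1 peaks within 50 kb was 13 and 13 with doxycycline, against 11 and 21 without, so the groups overlapped. The kept region at chr3:71583961-71584349 lay across its first base. The gained region, chr3:71244530-71245415, had 7.14-fold and 5.45-fold with doxycycline and no peak in either library without. It spans the internal start window printed above, of whose 300 bases peaks took in 279 and 300 with doxycycline, against 0 and 0 without. In WT cells the same window had 157 and 300 bases in FOXA1 peaks, so 4 of the 6 FOXA1 lists had a peak there and the 2 of the A-Fos line without doxycycline did not.

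**Figure D5:**
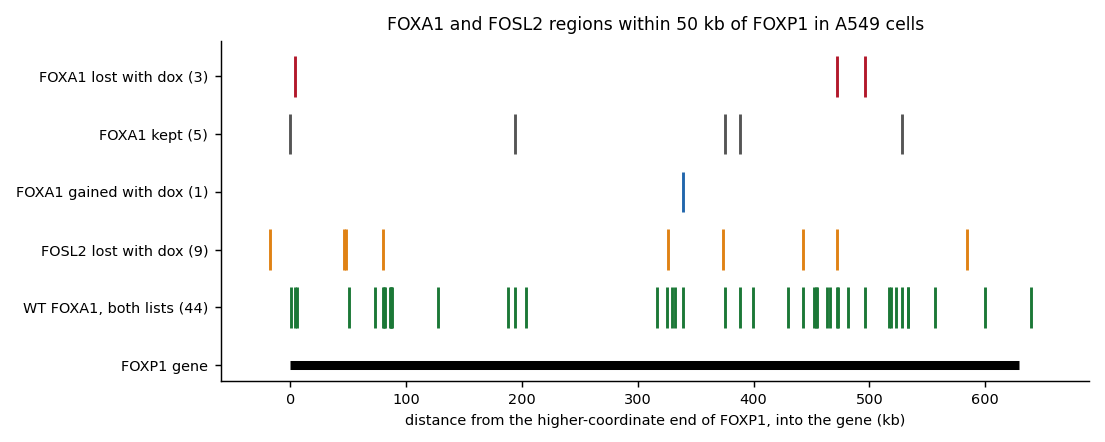
Ticks mark the middle of each region within 50 kb of FOXP1, against the distance in kb from the higher-coordinate end of the gene, which is the 5′ end, into the gene. The 44 WT FOXA1 regions run along the gene, the 3 lost, 5 kept and 1 gained FOXA1 regions lie among them, and 1 of the 9 lost FOSL2 regions coincides with a lost FOXA1 region.

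The forkhead motif TGTTTAC, searched on both strands, was found in 1 of the 45 promoter windows of 34 forkhead genes and in 3.42% of 35116 RefSeq windows. That window is the internal FOXP1 start. The motif, at chr3:71245264-71245270, lay 100 bp and 68 bp from the FOXA1 summits of the libraries with doxycycline, and 3 bp and 15 bp from the summits of WT lists 1 and 2. The AP-1 motif TGANTCA, searched the same way, was found in 3 windows, those of FOXD4L1, FOXO3 and another FOXP1 start, and in 7.71% of all windows. No FOXA1 or FOSL2 peak of any of the 10 lists overlapped those 3 sites.

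The gained region of FOXO3 lay 22.5 kb past the gene, at chr6:108707319-108707672, with 5.82-fold and 5.11-fold with doxycycline. Gained counts were the least steady: without the first library with doxycycline 10 genes had a gained region, without the second 8, and without the second library lacking doxycycline 6. FOXD1 and FOXF2 had 1 FOXA1 peak within 50 kb in each library with doxycycline, against none in either without, but the peaks of the 2 libraries did not overlap, so no gained region was called. FOXP2 had 6 and 7 FOXA1 peaks with doxycycline, against 2 and 5 without. FOXN3, a regulator of the cell cycle checkpoint, had 3 and 4 with doxycycline, against 1 and 2 without. At both genes the groups did not overlap. Both libraries with doxycycline had more FOXA1 peaks than both without at 5 forkhead genes (FOXD1, FOXF2, FOXO3, FOXP2 and FOXN3), against 7.0% of all genes, and fewer at 5 (FOXJ3, FOXQ1, FOXO1, FOXC2 and FOXL1, the last 2 by a shared region), against 4.44%. No test was made on single genes. At the internal FOXP2 start, FOXA1 peaks took in 300 and 162 bases with doxycycline, against 0 and 69 without, and since 1 library without doxycycline had a peak the region was given no class.

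FOXM1, FOXJ1, FOXK2 and FOXJ2 had no FOXA1 peak within 50 kb in any A-Fos library. FOXM1 had no FOSL2 peak there with doxycycline, against 1 and 1 without, and FOXJ2 had 0 and 1 with doxycycline, against 9 and 2 without. FOXP4 had 1 and 1 FOXA1 peaks with doxycycline, against 0 and 1 without. FOXK1 had 1 and 2 with doxycycline, against 1 and 1 without, of which the region at chr7:4744792-4745205 was kept. FOXN2 had 0 and 2 with doxycycline, against 1 and 3 without. FOXC1 and FOXF1 had none in any of the 4.

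Genes that forkhead proteins are known to act on or with were counted in the same way. Of 20 regulators and targets of FOXO proteins, 18 had a WT FOXA1 region within 50 kb, against 72.9% of all genes. A lost FOXA1 region lay near 4 of the 20, against 9.05%, a kept one near 8, against 14.9%, and a lost FOSL2 region near 12, against 39.3%. Of 12 FOXM1 targets of the cell cycle, 11 had a WT FOXA1 region and none had H3K27me3 in the body in both lists, against 30.3% of all genes. Of 12 cilium genes that FOXJ1 activates, all had a WT FOXA1 region and 10 had H3K27me3 in the body in both lists, among which TEKT1 was covered over at least 50%. Of 10 genes for Polycomb and heterochromatin enzymes and their partners, none had H3K27me3 in the body in both lists and none had a lost, kept or gained FOXA1 region. These lists differ in gene length, with medians of 40710.5 bp (FOXO list), 14422.5 bp (FOXM1 list) and 64727 bp (cilium list), and their counts were not compared.

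Set beside other families of developmental regulators, forkhead genes had H3K27me3 over at least 50% of the body in both lists in 4 of 44 cases. The same count was 3 of 9 for PAX genes, 3 of 15 for T-box genes, 2 of 18 for SOX genes, 1 of 39 for HOX genes and 0 of 3 for the FOXA genes. Any H3K27me3 in the body was found at 14 of 44 forkhead genes, 9 of 9 PAX, 8 of 15 T-box, 9 of 18 SOX, 8 of 39 HOX and 1 of 3 FOXA genes. A WT FOXA1 region within 50 kb was found at 35 of 44 forkhead genes, 5 of 9 PAX, 12 of 15 T-box, 13 of 18 SOX, 28 of 39 HOX and 3 of 3 FOXA genes. Over all genes the 3 shares were 5.14%, 30.3% and 72.9%. Median gene lengths differed, at 3991 bp (forkhead), 62925 bp (PAX), 13921 bp (T-box), 5039.5 bp (SOX), 3785 bp (HOX) and 5698 bp (FOXA). The counts make no allowance for length. HOX genes share clusters, so their counts repeat the same regions, and no difference between families was tested.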

How the data were processed

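The deposited files are 1 list of peaks per library in the narrowPeak layout. The submitters' processing notes name hg38 as the build and MACS2, deepTools, SAMtools 1.8, BWA 2.2.1, fastp 0.23.2 and DRAGEN as tools, without settings. For each peak the authors deposited a fold enrichment, which is a linear ratio, and −log10 values of its p-value and q-value. Every peak has a q of 0.05 or less. The 3 inputs were not analysed here. Read depth is unknown, so no counting interval is given.

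Genes came from the RefSeq table of GRCh38.p14, which has no strand; strand and starts came from the RefSeq promoter windows where matched. Peaks were merged within a list to compute cover. For factors, peaks overlapping by at least 1 bp were joined into regions, over the 2 WT lists or the 4 A-Fos lists of a factor, and a region was near a gene within 50 kb of its interval. Shares over all 19122 genes stand beside each count and no set test was made. Peak numbers per library were compared with two-sided exact permutation tests, for which the smallest p with 2 against 2 is 0.333. Members, groups and lists, and every rule for naming genes, were chosen with earlier results of these data known. Genes named were those with the highest cover, the strongest WT regions, any lost or gained region, or a region at an end, with FOXM1, FOXJ1 and the main broad genes always described. Functions were tested on simulated data. Analyses used Python 3.11.15, numpy 2.4.6, pandas 2.3.3 and matplotlib 3.10.9. Some genes are not reported here.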

Additional observations from a re-analysis of the deposited data

How the results depend on the processing

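Peak lists carry no read counts, so no result has a depth-based precision, and with 2 libraries a side no exact p can pass 0.05. The window of 50 kb takes in other genes. The count of WT FOXA1 genes (35) stayed within 1.5 times under all 9 alternatives, with 39 to 39 when a library was left out.

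H3K27me3 body calls (4) became 7 at 25% cover, in either list or, chosen after seeing the data, with 5 kb added to each side; without a library they were 4 to 7. End calls (16) became 10 at transcription starts alone and 19 to 19 without a library. Starts were known only for the 34 genes with a promoter window. FOXE3, FOXF1, FOXC2 and FOXJ1, called at an end, had no window and could not be called at a start. H3K9me3 body calls (0) became 1 in either list and 0 to 1 without a library; end calls (0) became 3 with 2.5 kb around ends, 5 in either list and 0 to 5 without a library. Lost FOXA1 genes (6) became 3 at 10 kb and 6 to 9 without a library. Kept ones (7) became 3 with only the more enriched part of every list, 3 with lists of equal length and 7 to 9 without a library. Gained ones (2) became 1 at 10 kb, 4 at 100 kb, 6 with the more enriched part and 2 to 10 without a library. Lost FOSL2 genes (13) became 3 at 10 kb, 21 at 100 kb, 1 with lists of equal length and 13 to 30 without a library. Fewer peaks, a smaller window or genes without a known start leave fewer calls by construction. For the rest the cause was not tested.

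The difference in FOXA1 peaks (0.5) turned to -1 at 10 kb, to -4.5 without the second library with doxycycline, and to -13 without the first library lacking doxycycline; its range without a library was -13 to 14. The difference in FOSL2 peaks (-66.5) turned to 2 with lists of equal length and ran over -110.5 to -22.5 without a library. Replicate numbers are only numbers in the labels; with them as a replicate block the differences were 0.5 (exact p = 1) and -66.5 (exact p = 0.5), the second being the smallest p that 2 pairs can give.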
